A study of Mus musculus with 14 samples.

Results

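The contrast described here asks in which genes of the mouse hippocampus the effect of an IRAK4 mutation depended on a lupus-prone background. It is the interaction of background and mutation, the log2 ratio of MRL to MRL-IRAK4-KD minus the log2 ratio of C57BL6/J to IRAK4-KD, and every Ensembl gene of the deposited count table was a member. The table held 81881 features, of which 55536 were Ensembl genes, and the 38070 of them that reached a sum of 10 counts over all libraries were tested. A positive value means that MRL stood higher against MRL-IRAK4-KD than C57BL6/J stood against IRAK4-KD. Because 4 groups enter the value, the same positive number can arise in several ways. It can come from a high level in MRL or in IRAK4-KD, or from a low level in MRL-IRAK4-KD or in C57BL6/J. Levels of all groups are therefore given for many of the genes. Where levels are not given for all groups, the value alone does not tell which group it came from.

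Poly(A) RNA from hippocampus was sequenced at 10 months of age in 4 MRL, 4 MRL-IRAK4-KD, 3 C57BL6/J and 3 IRAK4-KD libraries. MRL mice were B6.MRL-Fas lpr/J mice, which carry the lpr allele of Fas. MRL-IRAK4-KD mice were a cross of these with mice that carry kinase-dead IRAK4, IRAK4-KD mice carried the kinase-dead protein without lpr, and C57BL6/J mice carried neither. All groups were described as being on a C57BL/6 background, but C57BL6/J mice came from a vendor and the remaining groups from a laboratory colony. The origin of the mice and the genotype of the C57BL6/J group thus cannot be told apart. Other differences between the mouse lines were not tested. For each group, IRAK4-KD included, they cannot be told apart from its genotype. The labels give neither litters, days of dissection nor sex for these libraries, and kinase-dead IRAK4 was not restricted to a cell type by the descriptions used here. The study describes each hippocampal sample as a separate mouse.

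IRAK4 is the kinase that Toll-like receptors and interleukin-1 receptors reach through the adaptor MyD88. Together with MyD88 and further IRAK proteins it forms the Myddosome, which leads to NF-kappa-B and to the induction of cytokines and chemokines. The lpr allele interrupts Fas, a death receptor that removes activated lymphocytes, and mice without functional Fas accumulate lymphocytes and autoantibodies. Kinase-dead IRAK4 keeps its scaffold while its catalytic activity is lost.

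Total counts ranged from 279723718 to 571925600 per library. MRL-IRAK4-KD replicate 4 stood apart: the input RNA concentration listed for it, in a unit not stated, was 27.4 against 39.6 to 43.7 in the other libraries, its library concentration was 13.48 nM against 23.49 to 27.55 nM, and the first principal component, with 51.3% of the variance, placed it at 101.7 and all other libraries between -19.1 and 3.58. The library labelled IRAK4-KD replicate 3 went against its label at Fas. Full-length Fas-201 was at 0 counts there, as in every one of the 8 lpr libraries, while the C57BL6/J libraries held 345 to 584 counts and the remaining IRAK4-KD libraries 360 and 386. Fas-204, annotated for nonsense-mediated decay, had 514 counts in it, 268 to 964 in the lpr groups and at most 7 elsewhere. Its 15 thalamus and striatum markers summed to 779 CPM (counts scaled to the normalized library size) against 242 to 356 elsewhere. Among them Adora2a, the adenosine receptor of striatal neurons, had 19.7 CPM there and at most 2.64 elsewhere. Both libraries were kept under their labels, and the counts, the group lists and the leading genes were also fitted without them. Where a value is given for all libraries only, it was not set against those fits in the text. The 18 hippocampal neuron markers summed to between 1220 and 1890 CPM over all libraries. In such bulk samples fewer cells of a type and less RNA per cell cannot be told apart.

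With all 14 libraries, 1588 genes were at an unadjusted p below 0.05, which is 4.17% of the genes tested. Of these, 740 had a positive interaction (1.94%) and 848 a negative interaction (2.23%). The total share of 4.17% is no larger than the fraction of 0.05 that such a threshold passes when no gene has an interaction. Only 1 gene, the mitochondrial transfer RNA gene mt-Tg, was past an adjusted p of 0.05 (0.00263%) in edgeR's quasi-likelihood test, which is the source of every p-value given without a tool. With the same libraries DESeq2 called 59 genes (0.178% of the 33225 to which it gave an adjusted p) and limma-voom with quality weights 24 (0.0630%), mt-Tg among both. Without MRL-IRAK4-KD replicate 4, 1044 genes (2.74%) were positive, 779 (2.05%) were negative and 14 (0.0368%) were past the adjusted threshold. Without the library labelled IRAK4-KD replicate 3 these numbers were 577 (1.52%), 540 (1.42%) and 1 (0.00263%), and without both libraries they were 870 (2.29%), 738 (1.94%) and 11 (0.0289%). All 14 genes called without MRL-IRAK4-KD replicate 4 and all 11 called without both were at an unadjusted p below 0.05 with all libraries, and 8 genes were common to these lists. Of the 1588 genes, 383 no longer passed once MRL-IRAK4-KD replicate 4 was left out, and 744 no longer passed once the library labelled IRAK4-KD replicate 3 was.

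The mutation by itself was called in few genes on either background. Between MRL and MRL-IRAK4-KD, 37 genes were past an adjusted p of 0.05 (0.0972%), and between C57BL6/J and IRAK4-KD there were 56 (0.147%). These contrasts share no library. The 21 genes called in both had the same direction in 21 of 21, none of the 21 was at an interaction p below 0.05, and the median absolute interaction over them was 0.437 on the log2 scale against a median absolute change of 4.36 on the lpr background.

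**Figure D1:**
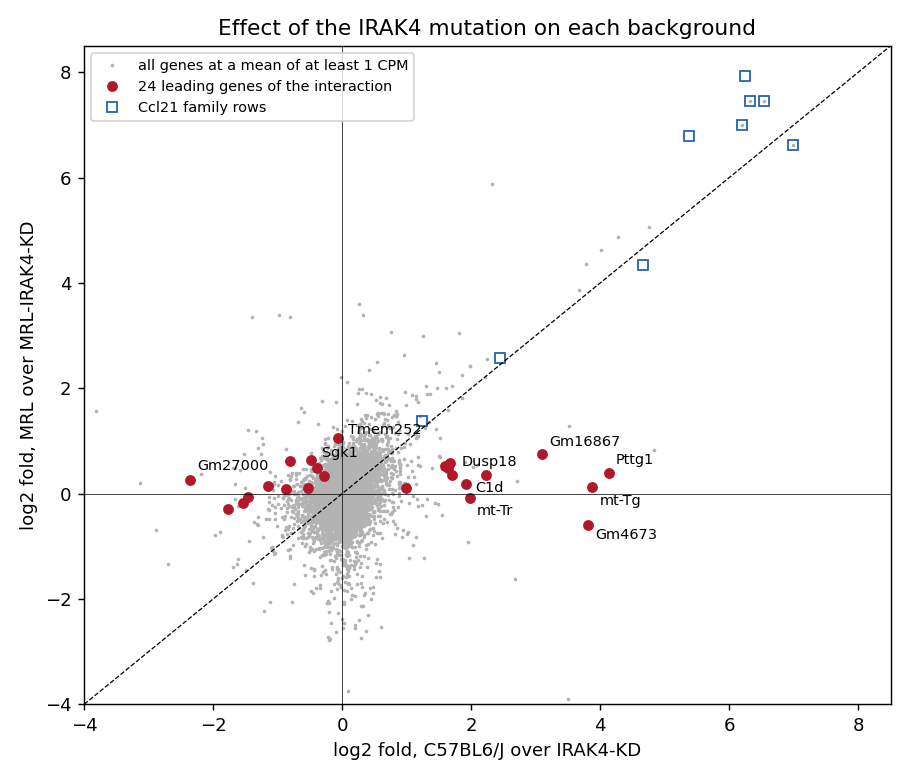
Each point is a gene, with the log2 fold of C57BL6/J over IRAK4-KD on the x axis and of MRL over MRL-IRAK4-KD on the y axis. Grey points are genes at a mean of at least 1 CPM (6 lie outside the axes), red points the 24 leading genes of the interaction, and squares the rows of the Ccl21 family. The dashed line marks equal effects, and the red points lie off it by 0.62 to 4.41 on the log2 scale.

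The chemokine genes of the Ccl21 family are ligands of Ccr7 that guide T cells and dendritic cells. They had large effects of the mutation on both backgrounds. Summed over 9 table rows, their level was 8.27, 17.4, 15.4 and 14.8 CPM in MRL, 0.155, 0.132, 0.177 and 0.267 in MRL-IRAK4-KD, 10.1, 11.2 and 13.1 in C57BL6/J and 0.369, 0.173 and 0.171 in IRAK4-KD libraries. Every library of the groups with normal IRAK4 was above every library of the mutant groups. The interaction was at an unadjusted p below 0.05 in 0 of 9 rows with all libraries, in 2 when either of the libraries in doubt was left out, and in 3 without both. All of these were positive. Over all genes the positive share was 2.74% without MRL-IRAK4-KD replicate 4, 1.52% without the library labelled IRAK4-KD replicate 3 and 2.29% without both. These rows are near-identical copies on chromosome 4 and on unplaced scaffolds, so that the split of reads between them is uncertain. Irak4 itself (ENSMUSG00000059883.16) had 2.38 ± 0.261 CPM in MRL, 2.01 ± 0.326 in MRL-IRAK4-KD, 2.16 ± 0.302 in C57BL6/J and 2.27 ± 0.251 in IRAK4-KD libraries (mean ± SD over 4, 4, 3 and 3 libraries), an interaction of 0.32 ± 0.25 (unadjusted p = 0.225). A kinase-dead allele need not change the level of its RNA, so this checks no label.

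The next genes are candidates for an effect that depends on both alleles with or without the 2 libraries in doubt. Leaving out other libraries was not part of the choice. Genes at a mean of at least 1 CPM were taken that kept their direction and an unadjusted p below 0.05 in 4 fits. These were the fits with all libraries, without each of the 2 libraries in doubt, and without both. The genes taken were 194 of 16104 genes (1.20%), 119 positive and 75 negative. These fits share most of their libraries and are not independent of each other. Within the 194 genes the effect of the mutation had opposite signs on the backgrounds in 143. It was at an unadjusted p below 0.05 on the lpr background in 103 and without lpr in 94, and in 21 genes it was so on both. After adjustment it was called in 2 of the 194 on the lpr background and in 27 without lpr. Over all 16104 genes it was called after adjustment in 25 and 43. At an unadjusted p below 0.05, 1103 of all these were higher and 1270 lower with normal IRAK4 on the lpr background, and 338 and 269 without lpr. The 194 genes were picked for a difference between the effects on the backgrounds, which favours opposite signs. Their counts describe the genes and are no test.

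The group whose mean log2 level lay farthest from the other groups differed between these genes. It was IRAK4-KD in 70 (36.1%), MRL in 66 (34.0%), C57BL6/J in 33 (17.0%) and MRL-IRAK4-KD in 25 (12.9%). Over all 16104 genes it was MRL-IRAK4-KD in 48.2%, MRL in 21.9%, IRAK4-KD in 20.1% and C57BL6/J in 9.80%. Among the 75 negative genes IRAK4-KD was the farthest group in 43, and among the 119 positive genes MRL was the farthest in 51. In 413 of all 16104 genes (2.56%) every IRAK4-KD library lay outside the range of the other 11, and 56 of the 194 genes were of this kind, 17 above and 39 below that range. The same for the MRL libraries held for 278 genes in all (1.73%) and for 26 of the 194, 19 above and 7 below. Since the farthest group and the interaction come from the same levels, these counts describe the genes and are no further test.

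The called gene is a mitochondrial transfer RNA gene. The mitochondrial genome encodes its own transfer RNAs, which lie between the genes of the respiratory chain and are cut out of long precursors. Of 22 such genes, 2 had a positive and 2 a negative interaction at an unadjusted p below 0.05 with all libraries, against 1.94% and 2.23% of all genes, and only mt-Tg passed adjustment. The list was drawn up after mt-Tg had been seen. The reference sequences of these 4 genes (GENCODE M21 transcripts of mm10, mitochondrial chromosome) are shown because they are the called gene and the other members past the unadjusted threshold, with the anticodon in capitals.
mt-Tg (chrM:9391-9458, plus strand): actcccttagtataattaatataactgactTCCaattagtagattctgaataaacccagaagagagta
mt-Tr (chrM:9808-9875, plus strand): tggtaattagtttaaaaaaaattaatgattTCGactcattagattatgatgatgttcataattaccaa
mt-Ti (chrM:3706-3774, plus strand): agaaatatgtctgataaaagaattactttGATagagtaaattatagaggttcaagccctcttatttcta
mt-Tq (chrM:3772-3842, minus strand): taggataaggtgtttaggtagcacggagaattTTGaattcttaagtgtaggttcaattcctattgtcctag

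The glycine transfer RNA gene mt-Tg (ENSMUSG00000064359.1) had 14.3, 10.4, 8.33 and 14.6 CPM in MRL, 13.5, 8.91, 7.57 and 13.7 in MRL-IRAK4-KD, 11.9, 9.49 and 12.5 in C57BL6/J and 0.741, 0.821 and 0.746 in IRAK4-KD libraries. All IRAK4-KD libraries, including the one with the lpr-type Fas transcript, were low and alike, while the MRL-IRAK4-KD libraries overlapped both groups with normal IRAK4. These levels stand on 299 to 414 counts in IRAK4-KD libraries and on 2729 to 6994 counts in the others. The gene covers 68 bases and the paper describes longer reads, so such reads reach beyond the gene. These counts cannot tell the transfer RNA from its precursor or from neighbouring transcripts. The same limit holds for the other transfer RNA genes shown, of 68 to 71 bases. The log2 interaction was -3.75 ± 0.34, with an adjusted p of 0.00127 in edgeR's quasi-likelihood test. It came from the contrast without lpr, where C57BL6/J was 14.7-fold higher than IRAK4-KD (log2 3.88, adjusted p = 1.46e-05), and not from the contrast on the lpr background (log2 0.12). Over all alternatives, which cover other normalizations, filters, tests and left-out libraries, its adjusted p lay between 9.09e-22 and 0.0149.

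The arginine transfer RNA gene mt-Tr had 8.56, 4.48, 4.67 and 9.53 CPM in MRL, 8.04, 7.01, 5.03 and 8.98 in MRL-IRAK4-KD, 10.7, 6.47 and 10.4 in C57BL6/J and 2.36, 2.34 and 2.31 in IRAK4-KD libraries, so that again the IRAK4-KD libraries lay below all others (interaction -2.07 ± 0.40, adjusted p = 0.367, and 0.00123 by DESeq2). Between mt-Tg and mt-Tr lies mt-Nd3, a subunit of respiratory complex I, which had 719, 855, 689 and 829 CPM in MRL, 783, 686, 597 and 1409 in MRL-IRAK4-KD, 709, 749.9 and 741 in C57BL6/J and 507, 621 and 514 in IRAK4-KD libraries. Its interaction was -0.59 ± 0.32 (unadjusted p = 0.0879), and -0.25 without MRL-IRAK4-KD replicate 4, the highest of all libraries. The isoleucine and glutamine genes mt-Ti and mt-Tq went the other way. The mt-Ti gene had 10.6, 11.6 and 11.2 CPM in C57BL6/J and 28.9, 53.5 and 20.4 CPM in IRAK4-KD libraries against 8.09 to 28.1 in all libraries outside IRAK4-KD, and an interaction of 1.38 ± 0.55 (adjusted p = 0.914, and 0.00801 without both libraries in doubt). Without IRAK4-KD replicate 2, the highest of its group, the interaction was 0.91 and no longer past the unadjusted threshold. The highest level outside IRAK4-KD was that of MRL-IRAK4-KD replicate 4, 28.1 CPM. The mt-Tq gene had 9.66, 10.3 and 10.2 CPM in C57BL6/J and 18, 31.5 and 15 in IRAK4-KD libraries (interaction 1.24 ± 0.36). It overlaps mt-Ti on the opposite strand, and the sources used here do not state whether reads were counted by strand, so that their reads cannot be told apart. Of the 13 protein-coding genes of the mitochondrial genome, 0 were at an unadjusted p below 0.05 in each of the 4 fits, and none was called by edgeR's quasi-likelihood test, DESeq2 or limma-voom. Their median interaction was 0.11. Levels of the ribosomal RNA genes mt-Rnr1 and mt-Rnr2 differed by an interaction of -0.08 and -0.08.

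Several nuclear genes showed the same arrangement, with IRAK4-KD libraries apart from the other groups. C1d (ENSMUSG00000000581.8, chr11:17257579-17269176), a nuclear protein that works with the RNA exosome, had 37, 38, 39.1 and 36.4 CPM in MRL, 27.9, 41.1, 40.7 and 23.4 in MRL-IRAK4-KD, 37.5, 42.1 and 41.4 in C57BL6/J and 10.3, 10.3 and 11.4 in IRAK4-KD libraries. The IRAK4-KD level was the lowest and did not overlap the rest. The interaction was -1.74 ± 0.23 with an adjusted p of 0.0530 in edgeR's quasi-likelihood test. Leaving out MRL-IRAK4-KD replicate 4 gave 0.000361, leaving out the library labelled IRAK4-KD replicate 3 gave 0.256, and leaving out both gave 0.00140, within a range of 1.34e-07 to 0.333 over all alternatives.

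Dusp18 (ENSMUSG00000047205.12, chr11:3895240-3901296), a dual-specificity phosphatase, had 41.5, 44.8, 37.8 and 40.1 CPM in MRL, 27.1, 35.9, 40.1 and 26.1 in MRL-IRAK4-KD, 42.3, 43.1 and 45.1 in C57BL6/J and 13.6, 13.3 and 13.2 in IRAK4-KD libraries. MRL-IRAK4-KD libraries reached lower than MRL libraries, and IRAK4-KD libraries lay below all of them (interaction -1.36 ± 0.19, adjusted p = 0.0530, 0.00105 once MRL-IRAK4-KD replicate 4 was left out, 0.408 once the library labelled IRAK4-KD replicate 3 was and 0.00706 once both were). Ccm2, a scaffold of endothelial junctions that lies on the same chromosome (chr11:6546887-6596744), had a mean of 28 ± 2.96 CPM in C57BL6/J, 14.1 ± 0.219 in IRAK4-KD, 28.1 ± 0.804 in MRL and 26.1 ± 2.49 in MRL-IRAK4-KD libraries (interaction -0.88 ± 0.14). Pttg1, securin, which holds sister chromatids together until anaphase, was low in IRAK4-KD libraries with 1.64, 0.976 and 1.14 CPM and lay between 20.8 and 25.8 CPM in the other groups apart from MRL-IRAK4-KD replicates 2 and 4, with 3.0 and 16.1 CPM. Its interaction was -3.74 ± 0.68 (adjusted p = 0.308).

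Other genes were high in IRAK4-KD alone. The long noncoding RNA Gm27000 (ENSMUSG00000097961.1, chrX:88759471-88760312) had 37.4, 61.6, 50.8 and 53.1 CPM in MRL, 48, 52.3, 48.6 and 21.7 in MRL-IRAK4-KD, 57.7, 59.3 and 48.9 in C57BL6/J and 265, 341 and 249 in IRAK4-KD libraries. Its interaction was 2.61 ± 0.36, with an adjusted p of 0.0530 with all libraries and 0.000407 without MRL-IRAK4-KD replicate 4, the lowest of its group. Without the library labelled IRAK4-KD replicate 3 it was 0.233, and without both it was 0.00140. Npc1l1, the sterol transporter of the gut and liver, was low in brain, with 1.24 ± 0.0811 CPM in C57BL6/J and 4.23 ± 0.191 in IRAK4-KD libraries (interaction 1.47 ± 0.33). Amy1, an amylase, had 35 ± 3.93 and 77.9 ± 8.18 CPM in these groups (interaction 1.29 ± 0.25). Col19a1, a collagen made by neurons, had 12.3 ± 2.79 and 34 ± 2.94 CPM (interaction 1.41 ± 0.32), 1700029J07Rik had 6.81 ± 0.772 and 19.8 ± 2.67 CPM (interaction 1.36 ± 0.25), and the imprinted noncoding RNA Snhg14 had 120.0 ± 20.6 and 220.3 ± 52.9 CPM (interaction 0.96 ± 0.23). Trim39, a ubiquitin ligase, had 32.7 ± 0.950 and 47.1 ± 4.50 CPM (interaction 0.62 ± 0.15). In edgeR's quasi-likelihood test none of these was past the adjusted threshold with all libraries or without the library labelled IRAK4-KD replicate 3, and Col19a1 and 1700029J07Rik were (adjusted p = 0.0197 and 0.0235) once MRL-IRAK4-KD replicate 4 was left out, beside Gm27000. With all libraries DESeq2 and limma-voom called Gm27000, Npc1l1, Amy1, Col19a1 and 1700029J07Rik, and neither called Snhg14 or Trim39.

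**Figure D2:**
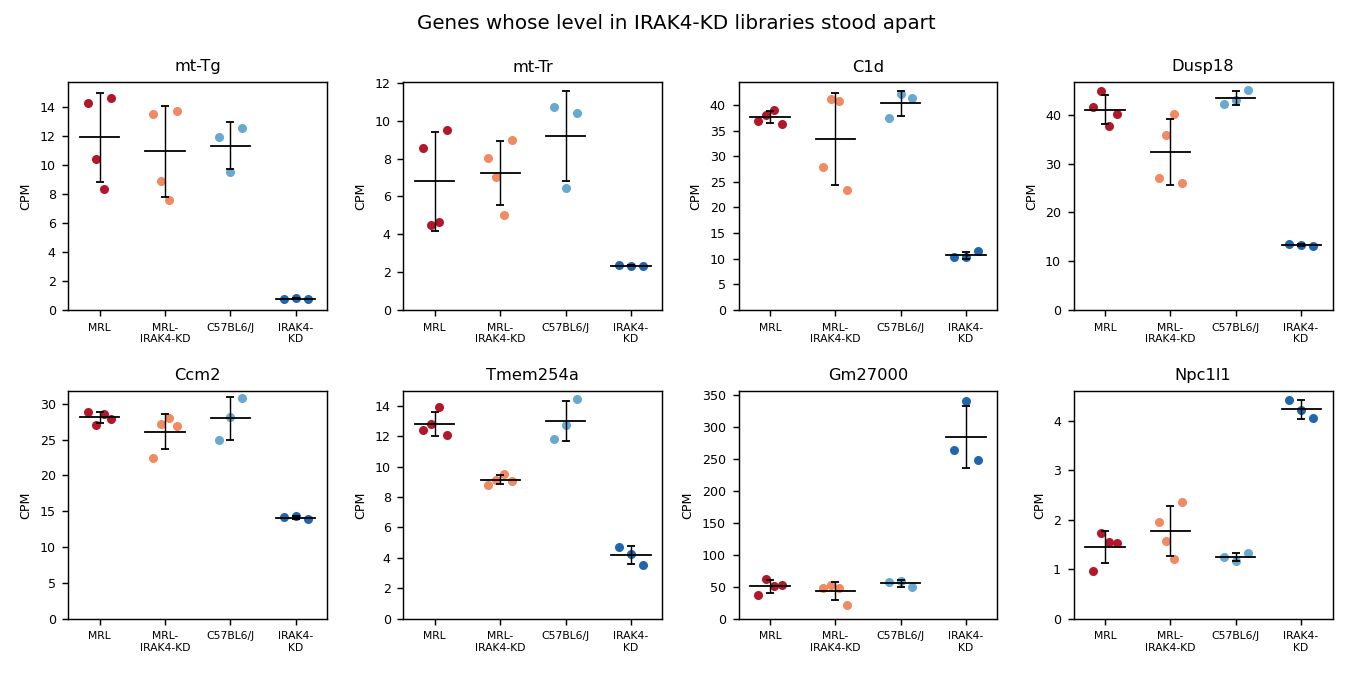
Each panel shows a gene, with CPM on the y axis from 0 and the 4 groups on the x axis. Points are libraries, and bars are the mean and SD of the group. For mt-Tg, mt-Tr, C1d, Dusp18, Ccm2 and Tmem254a the IRAK4-KD libraries lie below all other libraries, and for Gm27000 and Npc1l1 above them.

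Genes of this kind lay side by side on the chromosomes. On chromosome 14, Tmem254a, Tmem254b and Tmem254c, which encode small membrane proteins, lie with Plac9a, Plac9b and Gm9780 (chr14:25887506-26207041 of mm10), and their span holds 8 expressed genes, of which these 6 were among the 194. They are near-identical copies, so the reads of each copy are uncertain. Summed, the Tmem254 genes had 38.3, 41.3, 40.6 and 36.5 CPM in MRL, 28.8, 26.4, 27 and 26.4 in MRL-IRAK4-KD, 34, 36.9 and 41.6 in C57BL6/J and 13.7, 12.3 and 10.3 in IRAK4-KD libraries. Both groups with normal IRAK4 lay above both mutant groups, and the IRAK4-KD libraries lay below the MRL-IRAK4-KD libraries. The interaction of the sum was -1.10 (SE 0.15, adjusted p = 0.0419 in edgeR's quasi-likelihood test), and the effect of the mutation was 0.53 on the lpr background and 1.63 without lpr. The Plac9 genes summed to 4.38, 4.78 and 3.67 CPM in C57BL6/J and to 1.15, 0.953 and 0.859 CPM in IRAK4-KD libraries (interaction -1.64, adjusted p = 0.339).

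On chromosome 11, 9 of 76 expressed genes between 3000000 and 7000000 bases were among the 194, against 1.20% of all expressed genes. They were Pik3ip1, 8430429K09Rik, Ccm2, Ddx56, Npc1l1, Gas2l1, Pgam2, Limk2 and Dusp18. Both intervals were set after the positions had been seen. Whether the mouse lines differ in sequence there was not tested. Limk2, a kinase of the actin cytoskeleton, had 102 ± 3.70 CPM in C57BL6/J and 55.5 ± 3.20 in IRAK4-KD libraries (interaction -0.66 ± 0.18). Pik3ip1, an inhibitor of PI3-kinase, had 33.7 ± 2.06 and 20.5 ± 2.07 CPM (interaction -0.63 ± 0.13), and 8430429K09Rik had 5.56 ± 0.170 and 0.849 ± 0.268 CPM (interaction -2.48 ± 0.53). In 16 of the 76 genes the IRAK4-KD libraries lay outside the range of all others, against 2.56% of all expressed genes. By whole chromosomes the share of expressed genes among the 194 was 10.8% on the mitochondrial genome (4 of 37), 2.91% on chromosome 14 (17 of 584), 2.06% on chromosome 8 (17 of 825), 1.57% on chromosome 15 (10 of 636) and 1.56% on chromosome 11 (19 of 1217). It was 1 of 4 on the Y chromosome, and among the autosomes it was lowest on chromosome 12, 0.336% (2 of 596).

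**Figure D3:**
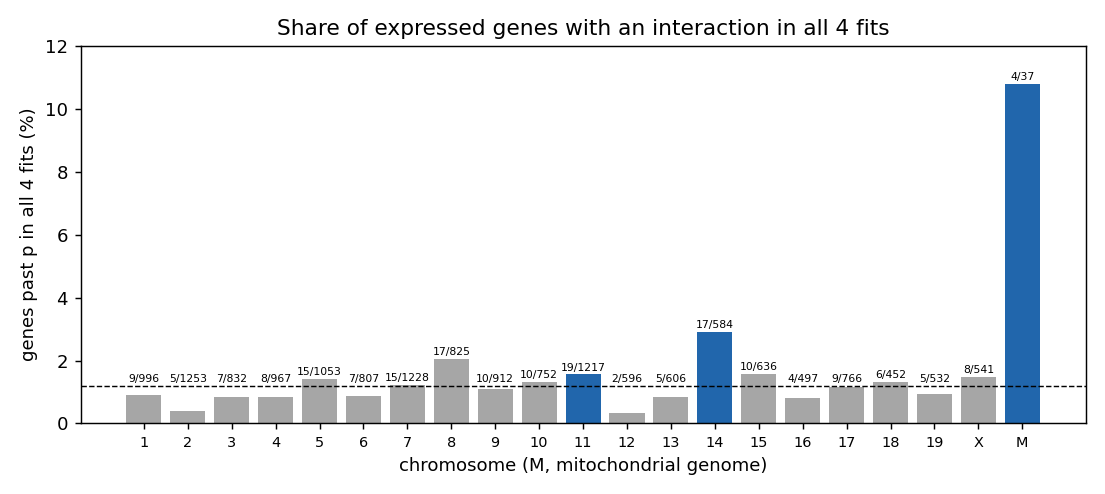
Bars give, for the autosomes, the X chromosome and the mitochondrial genome, the percentage of genes at a mean of at least 1 CPM that had an interaction at an unadjusted p below 0.05 in all 4 fits, with the counts above the bars. The dashed line is the share over all genes, 1.20%, and the blue bars are the chromosomes described in the text, with 10.8% on the mitochondrial genome and 2.91% on chromosome 14.

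In a smaller set C57BL6/J was the group apart. Gabra2, a subunit of the GABA-A receptor, had 153, 174 and 166 CPM in C57BL6/J and between 251 and 551 CPM in the other 11 libraries. Its interaction was 0.70 ± 0.24 and was past the adjusted threshold of edgeR's quasi-likelihood test without MRL-IRAK4-KD replicate 4 (adjusted p = 0.0222) but not with all libraries (adjusted p = 0.914), for which limma-voom gave an adjusted p of 0.0415 and DESeq2 one of 0.797. Wdfy1, an adaptor of Toll-like receptor signalling, had 22.3, 21.3 and 21.9 CPM in C57BL6/J and at least 33.3 CPM elsewhere (interaction 0.87 ± 0.27). Gm16867 had 23.1, 21.2 and 26.5 CPM in C57BL6/J against 2.84, 2.93 and 2.47 in IRAK4-KD and 10.2, 5.21, 3.26 and 2.98 in MRL libraries, of which replicate 1 was the highest (interaction -2.34 ± 0.46). Wdfy1 and Nnt were chosen after their values were seen. Nnt, the transhydrogenase of mitochondria, was not of this kind, since its summed C57BL6/J and MRL levels overlapped. The table holds 2 rows for Nnt. A single row gave an interaction of -16.26 because its reads stood at 0 in all IRAK4-KD libraries and in 2 MRL-IRAK4-KD libraries, where the other row held them. Their sum had 21.8, 20.9 and 20.5 CPM in C57BL6/J, 38.1, 39.2 and 38.7 in IRAK4-KD, 19.7, 20.9, 18.6 and 20.8 in MRL and 37.4, 30.02, 37.8 and 16 in MRL-IRAK4-KD libraries, and the interaction of the sum was 0.28 (adjusted p = 0.915).

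Further positive genes had their highest mean in MRL libraries, and some of them were also lowest in C57BL6/J libraries. Sgk1 (ENSMUSG00000019970.15, chr10:21882184-21999903), a kinase induced by glucocorticoids, had 93.7, 76.8, 119.7 and 83.9 CPM in MRL, 60.2, 53.3, 62.8 and 64.9 in MRL-IRAK4-KD, 43.9, 47.2 and 47.5 in C57BL6/J and 54.3, 77.9 and 61 in IRAK4-KD libraries. It was higher in MRL than in MRL-IRAK4-KD and lower in C57BL6/J than in IRAK4-KD, with an overlap of MRL replicate 2 and IRAK4-KD replicate 2. Every C57BL6/J library lay below all other libraries, the lowest of which had 53.3 CPM. The interaction was 1.11 ± 0.21 and was not past the adjusted threshold (adjusted p = 0.367 in edgeR's quasi-likelihood test, 0.111 without MRL-IRAK4-KD replicate 4), but was called by DESeq2 (adjusted p = 0.00350, and 0.00350 to 0.989 over all alternatives). Tsc22d3, which encodes the glucocorticoid-induced leucine zipper, had 64.4, 70.1, 83.7 and 78.5 CPM in MRL, 69.5, 48.6, 49.9 and 44.9 in MRL-IRAK4-KD, 41.6, 47.5 and 49.9 in C57BL6/J and 58.8, 68.8 and 54.2 in IRAK4-KD libraries (interaction 0.87 ± 0.21, adjusted p = 0.914). Among 17 glucocorticoid-responsive genes 3 were positive at an unadjusted p below 0.05, namely these and Hif3a, against 1.94% of all genes, and 0 were negative, with a median interaction of 0.27. Fkbp5, the most used of these response genes, had an interaction of 0.24 ± 0.28 (unadjusted p = 0.410). Without MRL-IRAK4-KD replicate 4 the count was 4 of 17, and without the library labelled IRAK4-KD replicate 3 it was 2.

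Tmem252, a membrane protein, had 5.21, 5.65, 5.91 and 9.67 CPM in MRL libraries and between 2.58 and 3.55 CPM in all others, so that the MRL libraries lay above the rest. Its interaction was 1.13 ± 0.29 (adjusted p = 0.914). Cables1, a partner of cyclin-dependent kinases, had 18.1 ± 2.29 CPM in MRL, 14.3 ± 0.899 in MRL-IRAK4-KD, 12.5 ± 0.585 in C57BL6/J and 15.2 ± 1.28 in IRAK4-KD libraries (interaction 0.62 ± 0.16). Every C57BL6/J library of Cables1 lay below all others, and MRL overlapped IRAK4-KD. Fam83d, a protein of the mitotic spindle, had 2.23 ± 0.540, 1.44 ± 0.247, 0.876 ± 0.186 and 1.54 ± 0.267 CPM in the order of groups given for Cables1. It was low in C57BL6/J rather than high in MRL alone (interaction 1.44 ± 0.34). None was past the adjusted threshold of edgeR's quasi-likelihood test in these 4 fits, while DESeq2 called Fam83d with all libraries (adjusted p = 0.0223).

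The circadian clock genes past the unadjusted threshold were all positive. The clock is a feedback loop in which Bmal1 and Clock bind E-boxes and drive the Per and Cry repressors. Of 18 clock genes tested, 5 were positive at an unadjusted p below 0.05 and 0 were negative, against 1.94% of all genes, and all 5 were among the 194. The count was 7 without MRL-IRAK4-KD replicate 4, 5 without the library labelled IRAK4-KD replicate 3 and 6 without both, and the median interaction was 0.44, 0.40, 0.42 and 0.36 in the 4 fits. None of the 5 was past the adjusted threshold in edgeR's quasi-likelihood test, DESeq2 or limma-voom. The hours at which tissue was taken are not given in the sources used here, and their part in the result was not tested. Hlf, an output transcription factor of the clock, had 170.0, 184, 197 and 209 CPM in MRL, 161, 169.7, 145 and 101 in MRL-IRAK4-KD, 151, 150.2 and 160.3 in C57BL6/J and 160.2, 189.9 and 171 in IRAK4-KD libraries (interaction 0.57 ± 0.21). Cry1, a repressor, had 12, 14.4, 14.5 and 14.5 CPM in MRL, 11.1, 10.1, 10.5 and 11.7 in MRL-IRAK4-KD, 10.1, 11.8 and 12.5 in C57BL6/J and 11.2, 12.3 and 12.6 in IRAK4-KD libraries (interaction 0.42 ± 0.16). Both were highest in MRL, with overlap. Nr1d2, a nuclear receptor that represses Bmal1, had an interaction of 0.63 ± 0.24. Per3 and the repressor Bhlhe41 differed between C57BL6/J, at 45 ± 7.02 and 36.3 ± 3.50 CPM, and IRAK4-KD, at 59.4 ± 3.40 and 44.9 ± 1.03 CPM, with interactions of 0.44 ± 0.17 and 0.43 ± 0.14.

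RefSeq promoters of GRCm38.p6, from 250 bases before to 50 bases after the gene start, were searched for the E-box CACGTG, which reads the same on both strands. It occurred in 5 of the 16 clock genes matched (Per1, Cry1, Tef, Bhlhe41 and Ciart) and in 8.09% of the 27025 genes with a promoter. The windows around the E-box of the clock genes past the unadjusted threshold are shown with the E-box in capitals.
Cry1 (chr10:85185097-85185126, minus strand, E-box beginning 60 bases before the gene start): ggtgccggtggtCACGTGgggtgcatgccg
Bhlhe41 (chr6:145865556-145865585, minus strand, E-box beginning 153 bases before the gene start): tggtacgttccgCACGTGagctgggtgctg
Over the 60 genes named by rule that have a promoter there, the E-box occurred in 5 and the interferon response element core GAAANNGAAA on either strand in 4 (3.99% of all genes). A single fixed NF-kappa-B sequence occurred in 0 (0.174% of all genes), and its variants were not searched. The serum response element occurred in 0 (1.81% of all genes).

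**Figure D4:**
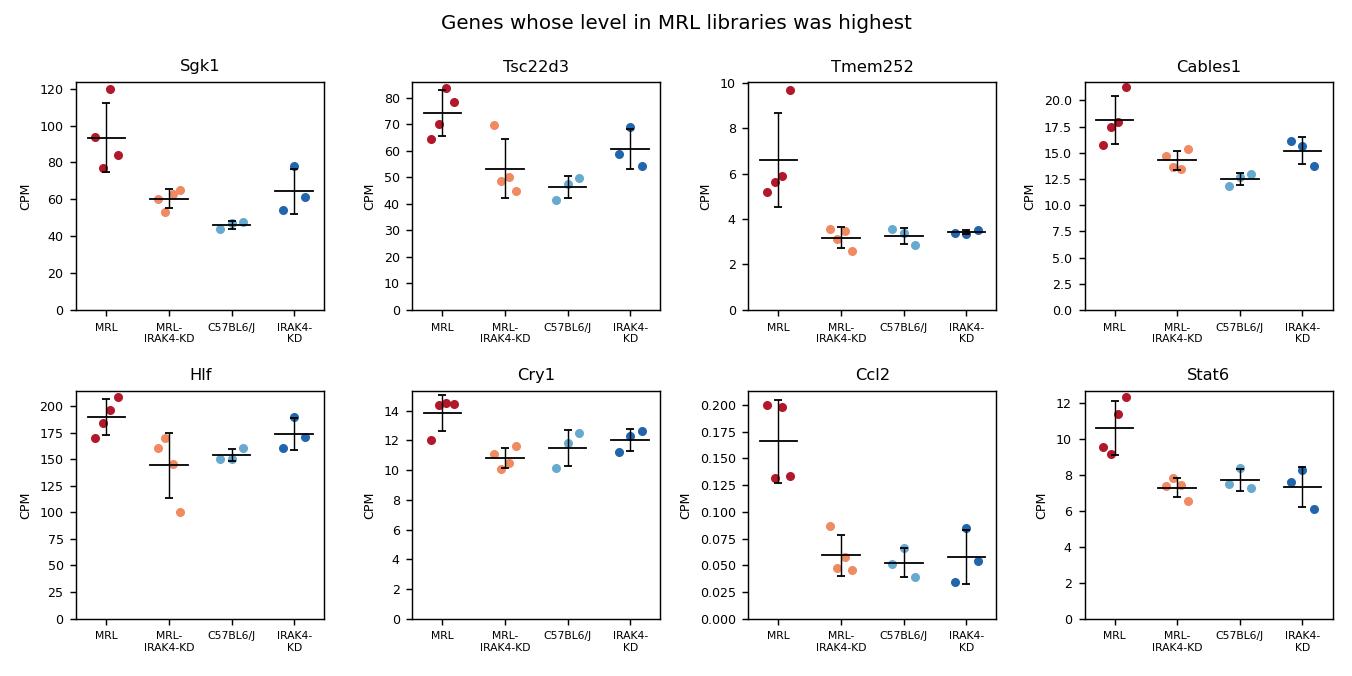
Each panel shows a gene, with CPM on the y axis from 0 and the 4 groups on the x axis. Points are libraries, and bars are the mean and SD of the group. The MRL mean is the highest of the 4 in every panel, and Ccl2 stays at or below 0.200 CPM in all libraries.

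The next lists are those of the receptors that signal through IRAK4 and of inflammatory genes. Of 28 genes of Toll-like receptors, interleukin-1 receptors and the Myddosome, 1 was positive at an unadjusted p below 0.05, against 1.94% of all genes. It was Cd14, the co-receptor for lipopolysaccharide, with 2.86 ± 0.908 CPM in MRL, 1.75 ± 0.464 in MRL-IRAK4-KD, 1.61 ± 0.147 in C57BL6/J and 1.73 ± 0.242 in IRAK4-KD libraries (interaction 0.82 ± 0.36). Of 30 NF-kappa-B subunits, feedback genes and targets 2 were positive, Bcl3 (interaction 1.73 ± 0.59) and the adhesion molecule Selp (interaction 2.37 ± 1.07). Both were highest in MRL replicate 4, at 1.19 and 0.771 CPM, and without that library the interaction of Selp was 1.01. The count was 4, 2 and 4 without MRL-IRAK4-KD replicate 4, without the library labelled IRAK4-KD replicate 3 and without both. Of 15 core JAK-STAT genes 2 were positive, and 3, 1 and 4 in the same leave-out fits. Over all genes the positive share was 1.94%, and 2.74%, 1.52% and 2.29% in these fits. At any p, the interaction was positive in 25 of the 28, 20 of the 30 and 12 of the 15 genes. Over all genes it was so in 18920 of 38070. Stat6, which transmits interleukin-4 and interleukin-13 signals, had 9.51, 9.15, 11.4 and 12.3 CPM in MRL, 7.34, 7.83, 7.40 and 6.54 in MRL-IRAK4-KD, 7.47, 8.37 and 7.25 in C57BL6/J and 7.56, 8.27 and 6.11 in IRAK4-KD libraries, and the MRL libraries lay above all others (interaction 0.47 ± 0.20, unadjusted p = 0.0352, adjusted p = 0.914). Jak2 had an interaction of 0.65 ± 0.30 with all libraries and of 0.56 ± 0.33 (unadjusted p = 0.117) without the library labelled IRAK4-KD replicate 3. Its level was 15.3 CPM in MRL-IRAK4-KD replicate 4 and 31.3 to 43.3 CPM in all other libraries. Without MRL-IRAK4-KD replicate 4 the interaction was 0.45.

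Of 29 chemokine rows outside the Ccl21 family 3 were positive and 0 negative, against 1.94% and 2.23% of all genes. A mean of 1 CPM was reached by 9 of these rows. Ccl2, which attracts monocytes, was near the floor of these libraries, with 0.200, 0.131, 0.199 and 0.134 CPM in MRL, 0.0867, 0.0477, 0.0574 and 0.0451 in MRL-IRAK4-KD, 0.0514, 0.0661 and 0.0393 in C57BL6/J and 0.0347, 0.0851 and 0.0541 in IRAK4-KD libraries. All MRL libraries lay above all others, and the interaction was 1.63 ± 0.61 (unadjusted p = 0.0185, adjusted p = 0.914 in edgeR's quasi-likelihood test), with 1.52, 1.69 and 1.57 in the 3 leave-out fits. Ccl12, its neighbour on chromosome 11, had an interaction of 1.37 ± 0.61, which was 0.87 without IRAK4-KD replicate 2, and Ccl17 one of 1.08 ± 0.49, the latter from a level of 0.923 ± 0.0844 CPM in IRAK4-KD against 0.358 ± 0.0795 CPM in C57BL6/J libraries. Ch25h, the enzyme that makes 25-hydroxycholesterol in activated myeloid cells, had 0.447, 0.586, 0.522 and 2.25 CPM in MRL and between 0.0483 and 0.278 CPM in all others (interaction 3.28 ± 0.79, adjusted p = 0.914, and 0.0229 by DESeq2). MRL replicate 4 was the highest.

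Of 32 interferon-stimulated genes 1, Zbp1, was positive at an unadjusted p below 0.05, against 1.94% of all genes, and the median interaction was 0.40. Of the 16 interferon-inducible GTPases, which attack vacuoles of pathogens, 0 were at that threshold and 0 were called by edgeR's quasi-likelihood test, DESeq2 or limma-voom, with a median interaction of 1.26, against -0.00 for all genes tested. Their summed level was 72.7, 67.6, 61.8 and 473 CPM in MRL, 47.4, 55.0, 46.2 and 33.6 in MRL-IRAK4-KD, 51.5, 50.9 and 40.3 in C57BL6/J and 35.4, 31.8 and 30.9 in IRAK4-KD libraries. Every MRL library lay above every other library, but MRL replicate 4 was several times higher than the remaining MRL libraries, and Zbp1 behaved alike, with 5.0 CPM in that library and at most 0.561 elsewhere. Without that library the interaction of Zbp1 went from 3.28 to 1.53. With that library included, 22 interferon-stimulated genes and 16 GTPases were higher in MRL than in MRL-IRAK4-KD at an unadjusted p below 0.05. Between C57BL6/J and IRAK4-KD it was 0 and 3. Over all 38070 genes it was 1957 on the lpr background and 812 without lpr. The interaction was positive in 27 of the interferon-stimulated genes and 16 of the GTPases. Passing on 1 background only is no test of the interaction. Of 18 genes of MHC class I and the immunoproteasome 1 was positive, H2-D1, with 45.4, 43.6, 37.3 and 85 CPM in MRL and 18.7 to 29.96 CPM in all others (interaction 0.74 ± 0.31, and 0.43 without MRL replicate 4). MHC class II gave 0 of 8 in all 4 fits. Complement gave 0 of 19 with all libraries. It gave 2, 1 and 5 positive genes without MRL-IRAK4-KD replicate 4, without the library labelled IRAK4-KD replicate 3 and without both. Over all genes the positive shares in these fits were 2.74%, 1.52% and 2.29%.

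Markers of neutrophils and platelets had the largest list median. Of 12 genes 7 were positive at an unadjusted p below 0.05, against 1.94% of all genes, and the median interaction was 3.97, and 4.77, 4.17 and 4.76 in the leave-out fits. Only 5 of the 12 reached a mean of 1 CPM, and the whole list summed to between 3.67 and 39.9 CPM per library. Much of this median thus stands on genes near the floor. The alarmin S100a9 had 2.27, 10.1, 0.636 and 6.01 CPM in MRL, 0.330, 0.109, 0.310 and 1.06 in MRL-IRAK4-KD, 0.471, 0.981 and 0.347 in C57BL6/J and 1.72, 1.12 and 0.710 in IRAK4-KD libraries (interaction 4.38 ± 1.17, adjusted p = 0.914). MRL replicates 2 and 4 were the highest of all libraries and MRL replicate 3 lay within the range of the other groups. Ngp and Camp, proteins of neutrophil granules, had interactions of 4.77 ± 1.28 and 5.34 ± 1.41, of which DESeq2 called the latter (adjusted p = 0.0220). Camp was near the floor, with a mean of 0.316 CPM over all libraries and 0.0528 CPM in MRL replicate 3. Of 6 red cell markers 1 was positive, the anion exchanger Slc4a1, and they summed to 370, 132, 84.0 and 358 CPM in MRL libraries and to at most 193 CPM in the others, and mice had been perfused before dissection. The part of blood left in the tissue was not tested.

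**Figure D5:**
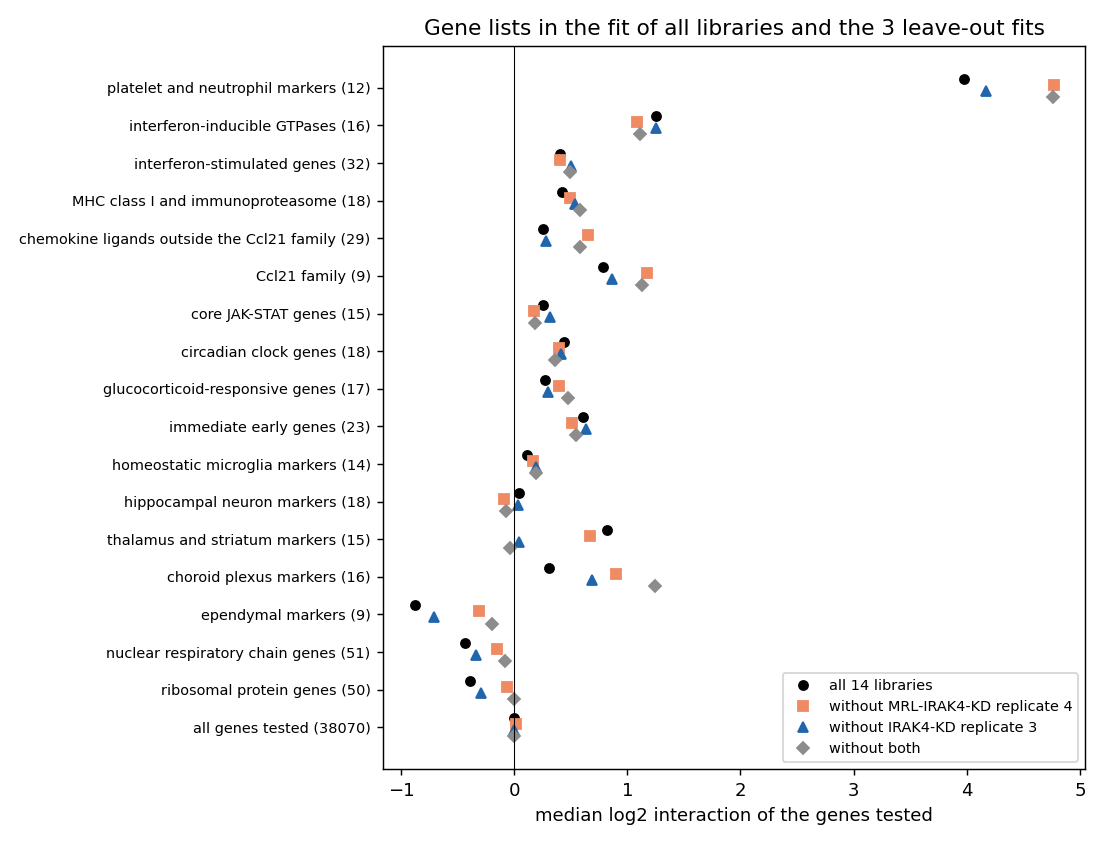
The x axis gives the median log2 interaction of the genes of each list, with the number of genes or rows tested in parentheses, for all 14 libraries and for the 3 leave-out fits. The neutrophil list has the highest median in all fits, the thalamus and striatum list falls from 0.82 to 0.05 without the library labelled IRAK4-KD replicate 3, and the ribosomal, respiratory chain and ependymal lists move towards 0 without MRL-IRAK4-KD replicate 4.

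Some group results depended on 1 library. Of 15 thalamus and striatum markers 3 were positive with all libraries, against 1.94% of all genes. They included Adora2a and the dopamine receptor Drd1. The count was 0 without the library labelled IRAK4-KD replicate 3, which held 28.8 CPM of Drd1 against at most 8.64 elsewhere. The count was also 0 without MRL-IRAK4-KD replicate 4. Cd4 stood at 5.98 CPM in the same IRAK4-KD library, against a highest value of 0.928 CPM elsewhere, and had an interaction of 3.39 that was 0.03 without it. The median of 51 nuclear respiratory chain genes was -0.43 and became -0.15 without MRL-IRAK4-KD replicate 4, that of 50 ribosomal protein genes went from -0.39 to -0.07, and that of 9 ependymal markers from -0.87 to -0.31. With all libraries 1, 2 and 2 members of these lists were negative at an unadjusted p below 0.05, against 2.23% of all genes. In that library the ribosomal protein genes summed to 15800 CPM against 6900 to 8740 in all others and the choroid plexus markers to 8650 CPM against 249 to 2670. Of 16 choroid plexus markers 0 were at an unadjusted p below 0.05 in any of the 4 fits.

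The remaining lists were mostly neuronal and glial. Of 23 immediate early genes 3 were positive (Fosb, Npas4 and Homer1), against 1.94% of all genes, and 2, 3 and 4 were in the leave-out fits. MRL replicate 2, with a sum of 2290 CPM against 720 to 1610 in the other libraries, was the highest. Of 26 glutamate receptor genes 1 was positive (Grm2, interaction 0.43 ± 0.18) and 1 negative (Grik4, interaction -0.59 ± 0.25), and of 14 GABA receptor genes 1 was positive, Gabra2. Of 14 homeostatic microglia markers 0 were past the threshold with all libraries. Without MRL-IRAK4-KD replicate 4, 3 were positive, against 2.74% of all genes. Their sum was 586, 472, 455 and 489 CPM in MRL and between 379 and 451 CPM in all other libraries. Astrocyte, interneuron, oligodendrocyte, oligodendrocyte precursor, border-associated macrophage, pituitary and proliferation markers held 0 at that threshold with all libraries. The same held for heat shock genes, gp130 cytokine receptors and neurotrophin and hormone genes. Of these, the 23 heat shock genes gave 6 positive genes without both libraries in doubt, against 2.29% of all genes. Endothelial markers gave Slc2a1 as positive (interaction 0.44 ± 0.20) and Cldn5 as negative (interaction -0.81 ± 0.33), hippocampal neuron markers Wfs1 as positive and C1ql2 as negative, reactive astrocyte genes H2-D1 alone, neocortex markers Cux1, pericyte markers Vtn as negative, and meningeal markers Slc6a13 and Dcn as negative. Among B cell markers the immunoglobulin light chain Igkc was negative (interaction -4.01 ± 1.20), with 4.70, 9.93 and 1.33 CPM in C57BL6/J and 0.290, 0.200 and 0.0703 in IRAK4-KD libraries.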

How the data were processed

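Poly(A) RNA of 14 hippocampi was sequenced, and the deposited table holds counts per gene. Per the labels and the submitters' processing notes, the authors used HISAT2 2.1.0, SAMtools 1.9 and StringTie 2.1.0 with the mm10 genome and worked in R 4.0.5 with DESeq2 1.30.1. The library kit differs between the record and the methods, and the use of strand in counting is not given in the sources used here. The table held 1.402 to 2.083 counts per read listed for a library, so a count is not an independent molecule.

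Ensembl genes (55536, all matched to GENCODE M21) with at least 10 counts in total were tested with edgeR 4.0.16 in R 4.3.3 (quasi-likelihood test, robust, TMM) in a single model of 4 groups, with Benjamini-Hochberg adjustment over 38070 genes. CPM values are TMM-normalized, values after ± are SD for levels and SE for log2 interactions, and SE was taken from the fold and the F statistic. Groups followed the labels. Named were genes past the adjusted threshold (at most 30), the 12 genes of smallest p per direction among the 194 genes that passed in all 4 fits, of each list up to 4 genes past an unadjusted p of 0.05, Irak4, Fas, Ccl2 and the Ccl21 family. Other genes were chosen after their values were seen. Members and lists were chosen with earlier results of these data known, and the cholesterol synthesis, mitochondrial transfer RNA and basement membrane lists after their values were seen. Alternatives were DESeq2 1.42.0, limma 3.58.1 (voom with quality weights), other size factors, other filters, a replicate block, non-robust dispersion, summed entries and each library left out. The test was first run on simulated data. Replicate numbers were not used as pairs in the main fit. The correlations of deviations had a median of 0.00184 in same-numbered pairs and 0.00626 in other pairs. Such medians cannot tell whether some libraries shared a litter or day. Feature rows without an Ensembl gene and deposited transcript counts other than those of Fas were not used. Figures were drawn with matplotlib 3.10.9.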

Additional observations from a re-analysis of the deposited data

Results flagged for a closer look

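The log2 interaction of mt-Tg, -3.75, is the difference between the effects of the mutation on the 2 backgrounds and was past the adjusted threshold, with the levels given above. A gap test within the groups of 4 libraries was run on 72 sets of values from the 24 leading genes and the genes fixed by name, and in 7 of them a library stood apart from the rest of its group, where chance gives about 1 in 20. The gap, as a share of the range of the group, was 0.857 for the low value of Gm27000 and 0.898 for the low value of Amy1 in MRL-IRAK4-KD replicate 4, and 0.883 for the high value of Gm4673 and 0.892 for the high value of Gm21541 in the same library. It was 0.844 for Tmem252 and 0.842 for a Ccl21b row (ENSMUSG00000096873.1), both high in MRL replicate 4, and 0.868 for Gm10591, low in MRL replicate 1. The Gm21541 value was near the floor, with 18 counts against 7, 5 and 4 in the rest of its group. Gm21541, Gm10591 and this Ccl21b row belong to the Ccl21 family of near-identical copies. The 72 sets are therefore not independent, which limits the comparison with 1 in 20. Of these 7 values, 4 were in MRL-IRAK4-KD replicate 4, the library with the low input concentration, 2 in MRL replicate 4 and 1 in MRL replicate 1.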

How the results depend on the processing

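The gene mt-Tg was called in every alternative run. With all libraries edgeR's quasi-likelihood test placed 1588 genes at an unadjusted p below 0.05 (740 positive, 848 negative) and 1 past the adjusted threshold. Leaving out each library in turn gave 1117 to 2289 genes, 553 to 1044 positive, 540 to 1296 negative and 1 to 14 adjusted calls. The adjusted calls were 14 without MRL-IRAK4-KD replicate 4, 6 without MRL replicate 1, 3 without MRL-IRAK4-KD replicate 1, and 2 when MRL replicate 4 or MRL-IRAK4-KD replicate 2 was left out, the latter with the 1296 negative genes. The cause was not tested. With both libraries in doubt left out there were 11 adjusted calls. DESeq2 gave 59, limma-voom 24 of 2965 genes (1463 positive, 1502 negative), no filter 4, a minimum mean of 1 CPM 7 of 461 genes (208 positive, 253 negative), filterByExpr 1045 genes (468 and 577), and summed entries of a symbol 5. With a replicate block, 2 genes were called and 1174 were at an unadjusted p below 0.05, 626 positive and 548 negative. The replicate numbers are not known to stand for a litter or day. Same-numbered libraries deviated with correlations of -0.264 to 0.394, 5 of 19 pairs being over 0.1. The 24 leading genes kept their sign in every alternative, and they had been chosen for keeping it without the libraries in doubt. Single-gene values changed side of the adjusted threshold 66 times, always towards a call. Since mt-Tg alone was called with all libraries, every other gene could change in that direction only.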

Other observations

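Several enzymes of cholesterol synthesis were lower in IRAK4-KD than in C57BL6/J libraries, in a set put together after several had been seen among the 194 genes. Of 23 genes, 7 had a negative interaction at an unadjusted p below 0.05 and 0 a positive one, against 2.23% of all genes tested, and 10, 5 and 9 did so without MRL-IRAK4-KD replicate 4, without the library labelled IRAK4-KD replicate 3 and without both. The median interaction was -0.24, and 0 were past the adjusted threshold in edgeR's quasi-likelihood test. Summed, they had 1030, 1090 and 1070 CPM in IRAK4-KD, 1210, 1360 and 1310 in C57BL6/J, 1220, 1270, 1420 and 1260 in MRL, and 1240, 1210, 1270 and 939 in MRL-IRAK4-KD libraries. The IRAK4-KD libraries lay below all others except MRL-IRAK4-KD replicate 4. Sqle, squalene epoxidase, had 56.7 ± 4.47 CPM in C57BL6/J and 43.9 ± 0.827 in IRAK4-KD libraries (interaction -0.38 ± 0.13), Fdft1, squalene synthase, had 88.9 ± 9.34 and 68 ± 3.04 (interaction -0.39 ± 0.14), and Mvd, which makes isopentenyl diphosphate, had 13 ± 1.62 and 8.84 ± 0.282 (interaction -0.63 ± 0.24).

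Basement membrane genes held 2 negative and 0 positive of 16, against 2.23% and 1.94% of all genes, and were also listed after values were seen. Col4a2, a chain of collagen IV, had 73.7, 69.9 and 78.2 CPM in C57BL6/J, 52.6, 49 and 52 in IRAK4-KD, 65.9, 67.5, 60.5 and 72 in MRL and 79, 77, 71.9 and 61.9 in MRL-IRAK4-KD libraries. Its interaction was -0.65 ± 0.14 (adjusted p = 0.605 with all libraries, 0.0197 without MRL-IRAK4-KD replicate 4 and 0.0439 without both libraries in doubt, in edgeR's quasi-likelihood test). Mmp14, a membrane-bound matrix protease, had 13.5 ± 1.53 and 9.34 ± 0.630 CPM in C57BL6/J and IRAK4-KD libraries (interaction -0.62 ± 0.16).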
